A study of Mus musculus with 2 samples.

Results

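Tissue inhibitors of metalloproteinases and the plasminogen activator system were examined through 8 genes in the stroma of mouse pancreatic tumours: Timp1, Timp2, Timp3, Plau, Plat, Plaur, Serpine2 and Serpinb2. The genes were chosen by name, and all 8 are among the 31054 features of both count matrices. Tumours were allografts of pancreatic ductal adenocarcinoma in mice of genotype p16-CreERT2/R26-LSL-tdTomato, and both groups of cells came from animals of that genotype. In such mice a tamoxifen-inducible Cre is expressed under control of p16 (Cdkn2a), and tdTomato marks cells in which Cre was active and the descendants of those cells, not p16 at the time of sorting. Labelled stromal cells were sorted as tdTomato positive or negative, and each fraction gave 1 library, named Tom positive and Tom negative here. Age, sex, tamoxifen schedule, and number of tumours or animals per library are not stated in the labels, so all differences between the libraries below are without a replicate, and the intervals given (95%) cover counting error only.

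TIMPs are secreted proteins that block the active site of matrix metalloproteinases and of some ADAM and ADAMTS proteases. TIMP2 also takes part in the activation of pro-MMP2 at the cell surface by MMP14, and TIMP3 stays bound to the extracellular matrix. In the plasminogen system, the proteases uPA (Plau) and tPA (Plat) cut plasminogen to plasmin, which breaks down fibrin and matrix proteins and activates several pro-metalloproteinases. The receptor uPAR (Plaur) holds uPA at the cell surface, and the serpins protease nexin-1 (Serpine2) and PAI-2 (Serpinb2) inhibit these proteases.

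Unique molecular identifiers (UMIs), each standing for 1 captured transcript, were summed over the cells of a class in a library. Levels are given as CPM, the UMIs of a gene scaled to a fixed total of all UMIs in that sum. The Tom positive library held 7568 barcodes and 128275546 UMIs, of which 4068 cells with a median of 26251.5 UMIs were kept. The Tom negative library held 13604 barcodes and 164646314 UMIs, of which 5347 cells with a median of 26599 UMIs were kept. The libraries shared 3660 barcodes, and 234 and 1233 passing barcodes that looked like carry-over from the other library were left out. The reporter transcript tdTomato had 548 CPM in the Tom positive library against 28.0 CPM in the other. Fibroblast-like cells (1548 and 2486, Tom positive first throughout) had all 12 fibroblast markers at 50 CPM or more, endothelial-like cells (508 and 119) all 12 of theirs, and neutrophil-like cells (285 and 538) all 10. Macrophage-like cells (574 and 784) had 12 and 11 of 12 markers at that level, and pericyte or smooth muscle-like cells (46 and 159) 11 of 12. A cluster of 261 and 661 cells led by Ccl17 and Plet1, for which dendritic cells scored best, had only 3 and 5 of 12 dendritic markers at that level beside 10 of 12 macrophage markers, and is called the Ccl17 and Plet1 cells here. Class limits depended on the random seed of the clustering. With 9 other seeds and 1 other linear algebra kernel, tried after the results were known, the fibroblast-like class held 2867 to 4035 cells in both libraries together, and in 8 of these 10 settings it lost 484 or more cells that it holds here. Those cells stood in clusters left unnamed and came mostly from the myofibroblast-like subset described later, of which 248 to 858 of 890 cells were lost in these 8 settings. None of the 10 settings gave 500 or more cells the dendritic name. The members and related pathway genes were kept out of the genes used for clustering.

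By position on mm10, Timp1 lies on chromosome X from 20870166 to 20874735, wholly inside Syn1 on the opposite strand. Timp3, on chromosome 10 from 86300372 to 86349506, lies wholly inside Syn3 on the opposite strand. Syn1 was at 4.73 and 7.45 CPM and Syn3 at 3.32 and 2.83 CPM over all cells. Timp2 is on the minus strand of chromosome 11 from 118301069 to 118355740, partly overlapping Cep295nl on the same strand. Plau is on chromosome 14 from 20836660 to 20843385, Plat on chromosome 8 from 22757727 to 22782844 and Plaur on chromosome 7 from 24462484 to 24475968. Both serpins are on chromosome 1, Serpine2 from 79794197 to 79861180 and Serpinb2 from 107511423 to 107535478.

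Among 6 members with a start site in the RefSeq promoter table (GRCm38.p6), Plaur and Serpinb2 were the ones with an AP-1 letter match, TGANTCA, within 250 bases before the start. They are printed here because their levels, high in myeloid cells and in a small number of fibroblasts respectively, set them apart from the other members in the results that follow. The 250 bases before the start are shown on the plus strand, with the AP-1 match in capitals.
Plaur, chr7:24462233-24462482: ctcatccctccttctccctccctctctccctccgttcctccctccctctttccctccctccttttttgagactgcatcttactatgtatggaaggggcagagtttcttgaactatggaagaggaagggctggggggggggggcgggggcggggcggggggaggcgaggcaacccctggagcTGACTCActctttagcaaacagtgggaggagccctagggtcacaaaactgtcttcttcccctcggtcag
Serpinb2, chr1:107511173-107511422: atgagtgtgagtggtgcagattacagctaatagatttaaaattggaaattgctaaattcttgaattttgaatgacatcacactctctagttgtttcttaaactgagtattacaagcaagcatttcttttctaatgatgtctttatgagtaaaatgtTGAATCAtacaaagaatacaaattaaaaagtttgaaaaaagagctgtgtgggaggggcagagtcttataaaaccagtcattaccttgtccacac
The Plaur match lies 69 bases before the start and the Serpinb2 match 94 bases before it. The table holds a second Serpinb2 start, not printed, whose window overlaps this one and has the same AP-1 letters 181 bases before it. Of 32851 mouse promoters of this length, 6.75% hold the motif on either strand. A TATA box match, TATAAA, was found in both Serpinb2 windows and in none of the other members with an entry, against 12.4% of all promoters. The GC box letters GGGCGG were found in Timp1, Timp2, Timp3, Plaur and Serpine2, against 32.7% of all promoters. The CRE letters TGACGTCA and an NF-kB motif, searched on both strands as the others were, were not found in any of the 6. A letter match is a description of the window and does not show binding.

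Timp1, Timp3 and Serpine2 were mainly stromal and vascular, Timp2 was found in stromal and immune classes, and Plaur was mainly myeloid. Among named classes with at least 30 cells, 7 of the 8 members had the same highest class in both libraries, Plau being the exception. Timp1 and Timp2 were highest in fibroblast-like cells, Timp3, Plat and Serpine2 in pericyte or smooth muscle-like cells, Plaur in neutrophil-like cells and Serpinb2 in fibroblast-like cells. That count was 4 when carry-over barcodes were kept. In that setting a class named mesothelial, in which 166 of 168 and 665 of 708 cells were such barcodes, was highest for Timp2 at 1280 and 1420 CPM and for Serpinb2 in the Tom positive library. Lymphatic endothelial-like Tom negative cells then numbered 33, 21 of them such barcodes, and were highest for Timp3, Plau and Serpinb2. Epithelial or carcinoma-like cells numbered 29 and 42, so that only the Tom negative ones were ranked, and these were highest for Plat at 628 CPM.

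**Figure D1:**
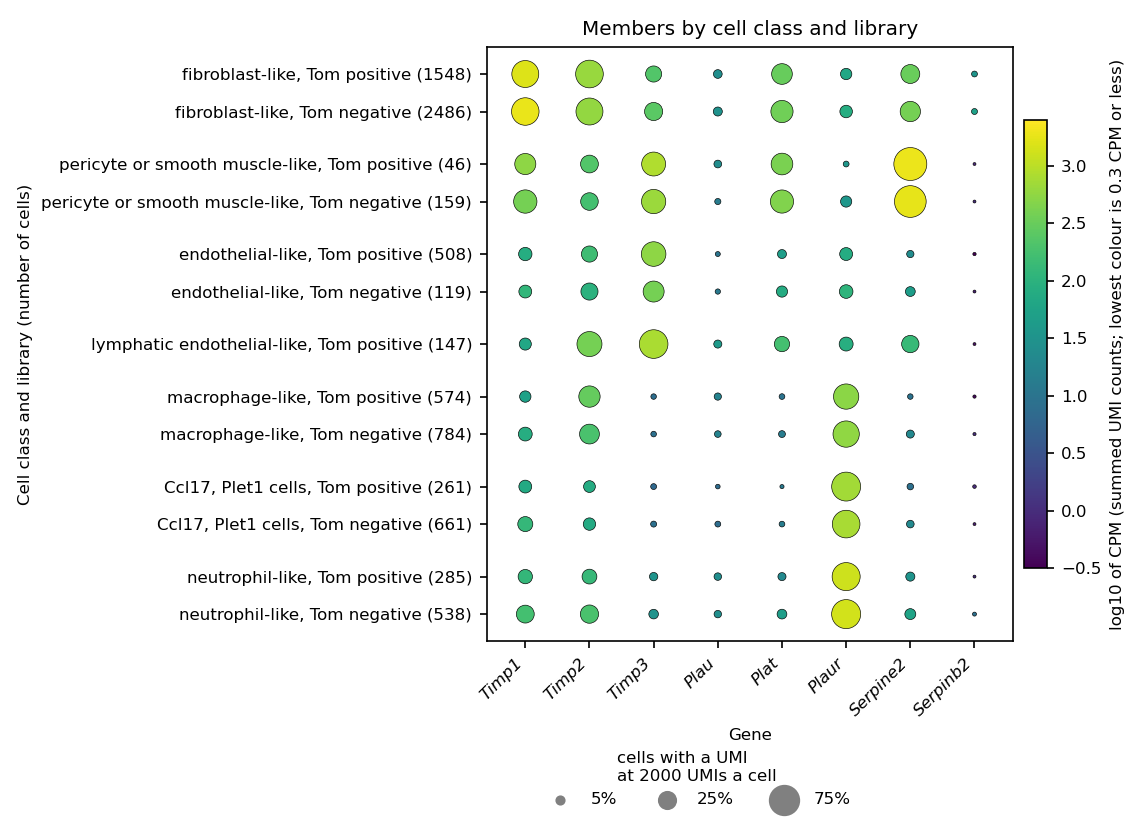
Levels of the 8 members (columns) in the larger cell classes, by library where it had at least 30 cells (rows, number of cells in brackets). T or NK-like and mast-like Tom positive cells, 39 and 31 in number, are not drawn. Colour is log10 of CPM and circle area grows with the share of cells with at least 1 UMI after each cell was thinned to 2000 UMIs. Timp1 and Timp2 are brightest in fibroblast-like rows, Serpine2 in pericyte or smooth muscle-like rows and Plaur in myeloid rows, in both libraries.

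Timp1, an inhibitor of most secreted metalloproteinases that is induced by cytokines, had 1590 CPM (1580 to 1600) and 1890 CPM (1880 to 1900) in fibroblast-like cells. These cells held 95.4% and 96.1% of all Timp1 UMIs of the kept cells. Over the 10 other clustering settings this level ranged from 834 to 1590 CPM and from 825 to 1890 CPM. The next class was pericyte or smooth muscle-like cells, at 544 and 381 CPM, with 1 cell holding 24.6% of the Tom positive UMIs. Fibroblast markers summed to 19000 and 11700 CPM in that class, and their part in its Timp1 level was not tested. All other classes with at least 100 cells in both libraries lay between 53.7 and 174 CPM. Endothelial-like cells and the Ccl17 and Plet1 cells did not differ beyond their intervals in either library. With each cell thinned to 2000 UMIs, which left out 21 and 55 shallower fibroblast-like and 11 and 2 macrophage-like cells, 63.5% and 66.3% of fibroblast-like cells had a Timp1 UMI, against 10.7% and 16.2% of macrophage-like cells. Unthinned, those shares were 96.7% and 97.0% against 50.9% and 74.7%, at median depths of 39978.5 and 37525 UMIs in fibroblast-like and 19959 and 21885.5 UMIs in macrophage-like cells. An unnamed cluster of 65 shallow Tom negative cells led by Krt18 and Krt8 (median 1158 UMIs) had 4070 CPM of Timp1, but 1 cell held 74.7% of those UMIs.

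Timp2, the inhibitor that also takes part in pro-MMP2 activation, was found in stromal and immune classes. It was at 624 CPM (618 to 630) and 589 CPM (584 to 594) in fibroblast-like cells and at 302 CPM (293 to 312) and 192 CPM (185 to 198) in macrophage-like cells. Lymphatic endothelial-like cells, of which the Tom positive library held 147, had 388 CPM (370 to 407). Blood endothelial-like cells had 153 and 98.9 CPM, neutrophil-like cells 128 and 194 CPM and the Ccl17 and Plet1 cells 77.8 and 75.1 CPM. In Tom negative cells the levels of neutrophil-like, macrophage-like and pericyte or smooth muscle-like cells (194, 192 and 174 CPM) were not separated by their intervals from one neighbour to the next. The Ccl17 and Plet1 cells were the lowest class for Timp2 in both libraries.

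Timp3, the matrix-bound inhibitor, was a gene of vessels and fibroblasts here. It was at 855 CPM (803 to 909) and 657 CPM (632 to 681) in pericyte or smooth muscle-like cells, 1 cell holding 35.1% of the Tom positive UMIs. Lymphatic endothelial-like Tom positive cells had 812 CPM (785 to 840), which overlaps the pericyte interval. Blood endothelial-like cells had 554 and 382 CPM, against 223 and 252 CPM in fibroblast-like cells. Macrophage-like cells had 7.81 and 8.35 CPM and the Ccl17 and Plet1 cells 6.56 and 8.38 CPM. The order pericyte, endothelial, fibroblast was the same in both libraries with intervals that did not overlap. Those intervals do not cover spread between cells, and the Tom positive pericyte level includes the 1 cell that held 35.1% of its UMIs.

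Plau, which encodes urokinase, was low in all of the larger classes and had no clear highest class. Fibroblast-like cells had 25.6 CPM (24.3 to 26.8) and 31.1 CPM (30.0 to 32.2), and neutrophil-like cells 25.6 CPM (16.7 to 37.5) and 26.7 CPM (19.1 to 36.2). The intervals of these classes overlapped in both libraries, and a difference between them was not tested. Macrophage-like cells had 17.4 and 17.6 CPM, endothelial-like cells 10.1 and 11.9 CPM and the Ccl17 and Plet1 cells 7.20 and 7.67 CPM. Lymphatic endothelial-like Tom positive cells had 40.2 CPM (34.5 to 46.7). The highest Tom positive value, 41.7 CPM, was in 31 mast-like cells and rests on 9 UMIs, with an interval of 19.1 to 79.1 CPM.

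Plat, which encodes tissue-type plasminogen activator, followed the mesenchymal classes. Pericyte or smooth muscle-like cells had 410 CPM (375 to 449) and 453 CPM (433 to 474), and fibroblast-like cells 310 CPM (305 to 314) and 362 CPM (358 to 366). Endothelial-like cells, in which tPA is classically described, had 46.2 CPM (43.1 to 49.5) and 76.5 CPM (66.9 to 87.2), and lymphatic endothelial-like Tom positive cells 172 CPM. Macrophage-like cells had 9.71 and 13.3 CPM. The epithelial or carcinoma-like cells, 20 and 23 in number, stood at 697 CPM (656 to 741) and 657 CPM (606 to 711), above the pericyte intervals in both libraries. In those few cells 1 cell held 21.5% and 18.7% of the Plat UMIs.

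Plaur, the urokinase receptor, was highest in myeloid cells. It was at 1260 CPM (1190 to 1330) and 1370 CPM (1310 to 1430) in neutrophil-like cells, 726 and 780 CPM in the Ccl17 and Plet1 cells and 520 and 557 CPM in macrophage-like cells. The order of neutrophil-like, Ccl17 and Plet1, and macrophage-like cells held in both libraries without overlap of the intervals. Endothelial-like cells had 78.1 and 110 CPM, fibroblast-like cells 67.4 and 82.7 CPM and pericyte or smooth muscle-like cells 37.3 and 36.4 CPM. The epithelial or carcinoma-like cells had 268 and 261 CPM. The unnamed myeloid and other clusters together had 739 and 671 CPM. With cells thinned to 2000 UMIs (28 and 82 neutrophil-like cells were shallower), 68.9% and 73.9% of neutrophil-like cells had a Plaur UMI, at median depths of 3562 and 2744.5 UMIs, against 2.27% and 10.4% of pericyte or smooth muscle-like cells at medians of 24128.5 and 23539 UMIs. Unthinned, the shares were 77.9% and 77.3% against 37.0% and 44.0%.

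The Plaur level of fibroblast-like cells was set beside that of macrophage markers in the same cells, since free RNA can carry transcripts between droplets. The 12 macrophage markers stood in fibroblast-like cells at a median of 0.398% (at most 2.29%) and 0.777% (at most 3.26%) of their macrophage-like level. Plaur stood there at 13% and 14.8% of its macrophage-like level, above each of the 12 markers in both libraries. The 10 neutrophil markers stood in fibroblast-like cells at a median of 0.173% (at most 2.02%) and 0.351% (at most 2.63%) of their neutrophil-like level. Plaur was at 5.35% and 6.04% of its neutrophil-like level, a smaller distance above the highest marker. The part of free RNA in the Plaur level of fibroblast-like cells was not tested.

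Serpine2, which encodes protease nexin-1, a serpin that inhibits thrombin, uPA and tPA, was highest in pericyte or smooth muscle-like cells, at 1920 CPM (1840 to 2000) and 1770 CPM (1730 to 1810). Fibroblast-like cells had 328 CPM (324 to 333) and 378 CPM (374 to 382), and 226 to 349 CPM and 220 to 409 CPM over the 10 other clustering settings. At 2000 UMIs a cell, 95.5% and 88.3% of pericyte or smooth muscle-like cells had a Serpine2 UMI, against 31.0% and 35.7% of fibroblast-like and 1.95% and 4.99% of macrophage-like cells. Lymphatic endothelial-like Tom positive cells had 134 CPM and blood endothelial-like cells 23.7 and 44.7 CPM. Macrophage-like cells had 9.23 and 21.0 CPM and the Ccl17 and Plet1 cells 8.48 and 21.5 CPM. Because fibroblast-like cells were far more numerous, they held 84.7% and 80.6% of all Serpine2 UMIs of the kept cells, and pericyte or smooth muscle-like cells 9.45% and 16.5%.

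Serpinb2, which encodes PAI-2, was highest in fibroblast-like cells among the named classes, at 34.4 CPM (32.9 to 35.8) and 52.0 CPM (50.5 to 53.4). Endothelial-like cells, macrophage-like cells, the Ccl17 and Plet1 cells and pericyte or smooth muscle-like cells lay between 0.277 and 1.02 CPM. Neutrophil-like cells had 0.983 and 8.45 CPM, from 1 and 13 UMIs. In 12 lymphatic endothelial-like Tom negative cells Serpinb2 reached 148 CPM, but 1 cell held 98.1% of those UMIs. The unnamed clusters together had 42.3 and 18.7 CPM, described with the myeloid subsets.

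Fibroblast-like cells fell into 6 clusters, and most members differed more between these than between the libraries. The clusters were tendon-like (led by Comp, Fmod and Tnmd), adventitia-like (Hmcn2, Cxcl13, Sfrp4), fascia-like (Dmkn), myofibroblast-like (Spp1, Inhba, Acta2), cycling (Top2a, Ube2c) and one led by Ctla2a, Itgbl1 and Cemip.

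Timp1 was concentrated in myofibroblast-like cells, at 3290 CPM (3260 to 3320) and 3480 CPM (3460 to 3510), and in cycling fibroblasts, at 4830 CPM (4770 to 4900) and 4010 CPM (3970 to 4050). The other 4 subsets lay between 649 and 1060 CPM. Timp2 had the opposite order. It was highest in fascia-like cells, at 920 and 887 CPM, and lowest in cycling fibroblasts, at 362 and 286 CPM, and in myofibroblast-like cells, at 377 and 339 CPM. Timp3 was highest in tendon-like cells (367 and 319 CPM) and myofibroblast-like cells (333 and 375 CPM), whose order differed between the libraries, and lowest in the Ctla2a and Cemip cluster, at 66.2 and 72.6 CPM.

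The activators were both highest in fascia-like cells. Plat was at 500 CPM (484 to 517) and 477 CPM (468 to 486) there and at 201 and 162 CPM in tendon-like cells, the lowest subset in both libraries. Plau was at 47.0 CPM (42.0 to 52.4) and 49.2 CPM (46.5 to 52.1) in fascia-like cells and at 16.7 and 15.1 CPM in tendon-like cells. Plaur, in contrast, was highest in myofibroblast-like cells, at 122 and 134 CPM, and lowest in adventitia-like cells, at 31.2 and 37.0 CPM, where the Tom positive interval overlaps that of fascia-like cells. Fascia-like cells, the highest for both activators, had 37.1 and 46.3 CPM of the receptor.

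Serpine2 was highest in myofibroblast-like cells, at 731 CPM (716 to 746) and 765 CPM (754 to 775), and lowest in fascia-like cells, at 113 and 148 CPM. Serpinb2 was nearly absent from tendon-like cells (1.75 and 0.746 CPM) and adventitia-like cells (0.819 and 1.13 CPM). It was at 118 and 126 CPM in cycling fibroblasts, 52.1 and 75.3 CPM in myofibroblast-like cells, 103 and 49.7 CPM in fascia-like cells and 15.4 and 42.5 CPM in the Ctla2a and Cemip cluster. The Tom positive over Tom negative ratio was 2.06 (1.88 to 2.27) in fascia-like cells, where 2.20% of measured features were at least 1.5-fold apart either way. It was 0.361 (0.308 to 0.423) in the Ctla2a and Cemip cluster, where 3.01% were. The difference between these ratios was not tested.

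**Figure D2:**
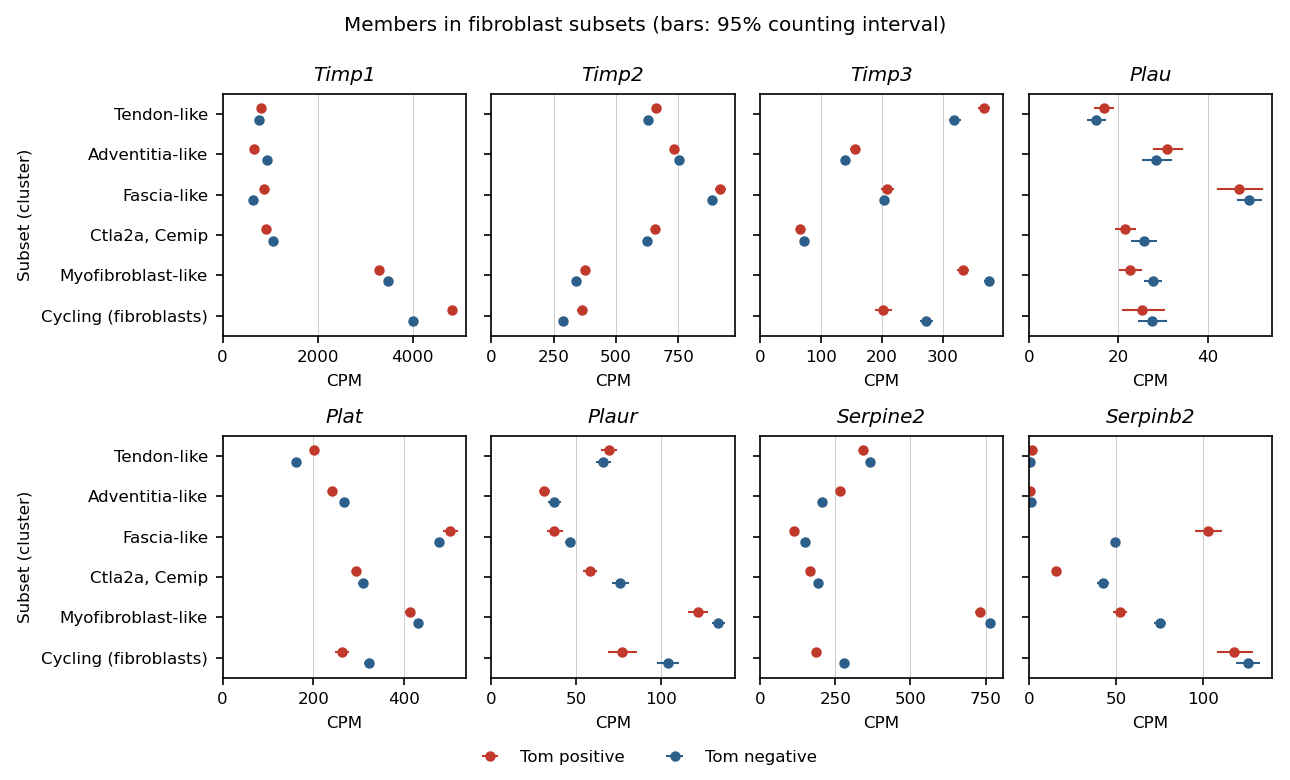
CPM of each member (panels, horizontal axis from 0) in the 6 fibroblast subsets (vertical axis) in Tom positive (red) and Tom negative (blue) cells, with bars for the 95% counting interval. Timp1 and Serpine2 stand out in myofibroblast-like cells at 3290 and 3480 CPM and at 731 and 765 CPM, Plat and Plau in fascia-like cells, and Serpinb2 lies near 0 in tendon-like and adventitia-like cells.

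Serpinb2 came from few cells. Among fibroblast-like cells, 36 of 1548 (2.33%) and 74 of 2486 (2.98%) held 10 or more Serpinb2 UMIs, and these held 93.3% and 94.7% of its UMIs. The highest single cells had 299 and 435 UMIs, while the median cell had 0. The SD of per-cell CPM was 228 and 323, around means of 29.6 and 38.1 CPM. In contrast, 67.8% of Tom positive fibroblast-like cells held 10 or more Timp1 UMIs.

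Other members differed in the Serpinb2-rich fibroblasts, which had median depths of 53352.5 and 55689.5 UMIs against 39791 and 37246.5 UMIs in the other fibroblast-like cells. Timp1 was at 5260 and 5790 CPM in them, against 1480 and 1700 CPM in the others. Serpine2 was at 90.4 and 149 CPM, against 336 and 389 CPM, and Timp2 at 372 and 290 CPM, against 632 and 603 CPM. Fosl1, a subunit of AP-1, was at 60.1 and 69.6 CPM against 23.0 and 30.3 CPM. Plaur was at 88.9 and 103 CPM against 66.7 and 81.7 CPM, and Plau at 23.0 and 23.3 CPM against 25.6 and 31.5 CPM. These cells were also spread unevenly over the subsets. Myofibroblast-like cells, 262 and 628 in number, held 13 and 30 of them, cycling fibroblasts (69 and 142) held 5 and 14, and fascia-like cells (204 and 707) held 11 and 21. The Timp1, Timp2 and Serpine2 differences had the same direction within each of these 3 subsets in both libraries. Within myofibroblast-like cells Timp1 was at 6850 and 6540 CPM in the Serpinb2-rich cells against 3100 and 3280 CPM in the rest. Serpine2 was at 171 and 152 CPM there against 760 and 806 CPM, and Timp2 at 266 and 203 CPM against 382 and 348 CPM. Median depths within that subset were 47683 against 47417 UMIs in the Tom positive and 57778.5 against 44410 UMIs in the Tom negative library.

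Myeloid cells fell into 11 clusters. Plaur was highest in neutrophil-like cells led by G0s2 and Hdc, at 1580 CPM (1470 to 1700) and 2310 CPM (2150 to 2480). The second neutrophil cluster, led by Prok2 and Acod1, had 965 and 1120 CPM, and the monocyte-type cluster (Chil3, F13a1, Cxcl3) 916 and 902 CPM. The naming rule left the monocyte-type cluster unnamed, with a marker score of 2.98 for macrophages and 2.95 for monocytes. It also left unnamed the cluster led by Nos2 and Rsad2 that is described below. The 5 macrophage-like clusters lay between 371 and 637 CPM, the lowest being resident-like cells marked by Cd163, Lyve1 and Cbr2. A shallow unnamed cluster led by Ctsk and Mt3 had 206 and 205 CPM.

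Timp2 had its highest myeloid level in resident-like macrophages, at 644 CPM (599 to 690) and 410 CPM (379 to 444). That was above the myofibroblast-like level of 377 and 339 CPM, which was low among the fibroblast subsets. Fibroblast-like cells as a whole had 624 and 589 CPM. Macrophages led by Ccl8 and Fcrls had 340 and 256 CPM. The cluster led by Nos2 and Rsad2 had 35.0 and 41.4 CPM, the lowest of the 11 in both libraries. That same cluster had the highest Plau of the 11, at 45.1 CPM (37.4 to 53.8) and 64.2 CPM (56.3 to 72.8), with intervals that overlap those of the Prok2 neutrophils in Tom positive and of the Ctsk and Mt3 cluster in Tom negative cells. Monocyte-type cells had 5.10 and 4.12 CPM of Plau.

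Serpinb2 in myeloid cells was found in the Nos2 and Rsad2 cluster, at 92.3 CPM (81.2 to 105) and 18.0 CPM (13.9 to 22.8), and in monocyte-type cells, at 24.8 and 17.2 CPM. Of the monocyte-type cells, 5 of 394 and 4 of 256 held 10 or more UMIs, and with them 51.7% and 68.0% of that cluster's Serpinb2 UMIs. The remaining clusters had 10 or fewer Serpinb2 UMIs each in each library. In the Nos2 and Rsad2 cluster, 5 of 117 Tom positive cells held 10 or more UMIs and 91.5% of its Serpinb2 UMIs. In those 5 cells Plaur was at 174 CPM and Lyz2, a macrophage lysozyme, at 124 CPM, against 491 and 1230 CPM in the other 112. The cluster's level in the Tom positive library thus rests on 5 cells. Its ratio was 5.13 (3.90 to 6.83), where 9.27% of features were at least 1.5-fold apart. Neutrophil-like cells led by G0s2 had 1 and 8 Serpinb2 UMIs, a ratio of 0.0847, where 51.8% of features were that far apart.

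**Figure D3:**
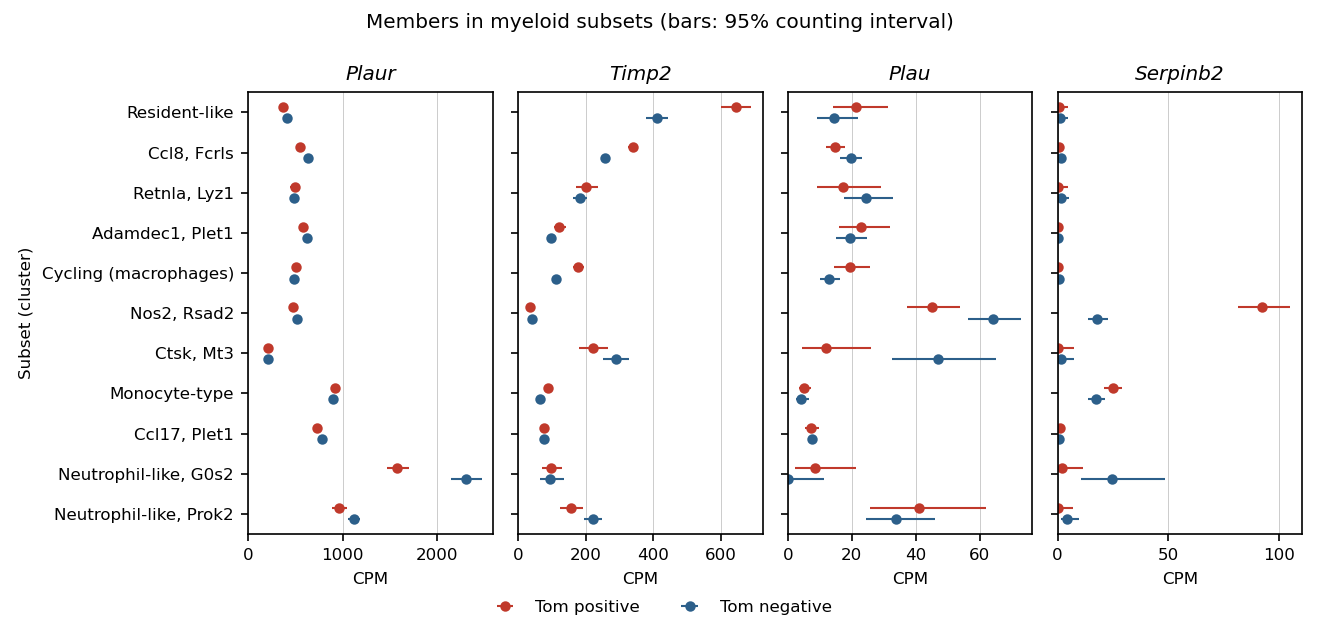
CPM of Plaur, Timp2, Plau and Serpinb2 (panels, horizontal axis from 0) in 11 myeloid subsets (vertical axis) in Tom positive (red) and Tom negative (blue) cells, with bars for the 95% counting interval. Plaur peaks in neutrophil-like cells at 1580 and 2310 CPM, and Timp2 in resident-like macrophages at 644 and 410 CPM. In Tom positive cells Serpinb2 peaks in the Nos2 and Rsad2 cluster at 92.3 CPM, a level that rests on 5 cells. Tom negative cells of that cluster had 18.0 CPM, which is not a clear peak.

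Tom positive and Tom negative fibroblast-like cells were within 1.5-fold of each other for 7 of the 8 genes. A gene was counted as different when the ratio of CPM was at least 1.5-fold either way, with 10 CPM or more in 1 of the libraries. By that rule 1 of 8 members differed, Serpinb2, and 2.30% of 8681 measured features did. Serpinb2 was at 34.4 against 52.0 CPM, a ratio of 0.661 (0.628 to 0.696), just past the limit. The other 7 ratios lay between 0.816 (Plaur) and 1.06 (Timp2). Timp1 had 0.845 (0.838 to 0.851), Plat 0.855 (0.840 to 0.870) and Serpine2 0.868 (0.854 to 0.884). The median log2 difference was -0.23 over the members and -0.03 over all measured features. Over the 10 other clustering settings the ratios of Timp1 (0.844 to 1.01), Timp2 (0.942 to 1.06) and Serpine2 (0.854 to 1.07) reached both sides of 1. Serpinb2 did not pass the limit under 13 of 17 alternative settings or under 8 of the 10 other clustering settings (ratios of 0.661 to 0.787), and its ratio rests on the 36 and 74 cells described above.

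Reporter RNA varied among the sorted cells, and Tom positive fibroblast-like cells were also split at 500 CPM of tdTomato into 282 reporter-high and 1266 reporter-low cells. Serpinb2 was at 108 CPM (102 to 114) in reporter-high and 18.1 CPM in reporter-low cells, with the Tom negative 52.0 CPM between them. Across both levels, 36 Tom positive fibroblast-like cells held 93.3% of the Serpinb2 UMIs, and the interval does not cover that spread between cells. The split was not matched for fibroblast subset. Against Tom negative cells the Serpinb2 difference thus turned from lower to higher when only reporter-high cells were used, by 1.04 on the log2 scale. Plat was at 405, 289 and 362 CPM in reporter-high, reporter-low and Tom negative cells, Plau at 32.9, 23.9 and 31.1 CPM and Serpine2 at 389, 315 and 378 CPM. Timp1 was at 1590, 1600 and 1890 CPM and Timp2 at 617, 626 and 589 CPM. For Plat, Plau and Serpine2 the reporter-high cells were thus above the reporter-low cells of their own library and within 1.5-fold of the Tom negative cells.

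**Figure D4:**
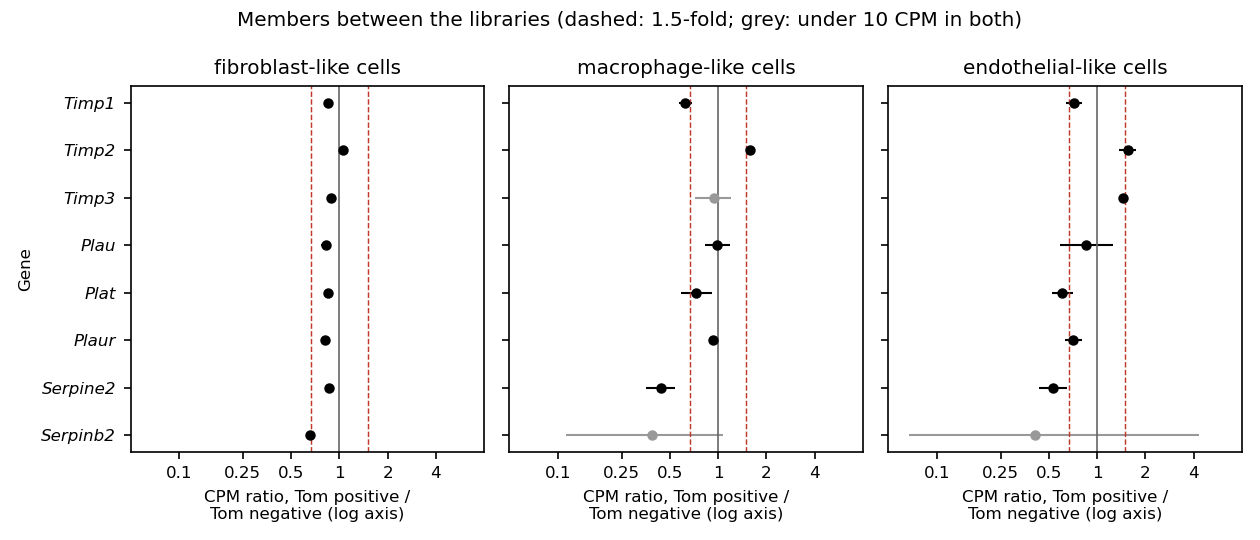
Ratio of Tom positive over Tom negative CPM for each member (vertical axis) in fibroblast-like, macrophage-like and endothelial-like cells (log axis), with bars for the 95% counting interval, a solid line at 1 and dashed lines at 1.5-fold. Members under 10 CPM in both libraries are grey. In fibroblast-like cells all but Serpinb2 (0.661) lie inside the dashed lines, and in macrophage-like cells Timp1, Timp2 and Serpine2 lie outside them.

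In macrophage-like cells, 6 of the 8 members reached 10 CPM and 3 of them differed between the libraries, against 3.37% of 8300 measured features. Timp2 was higher in Tom positive cells, at 302 against 192 CPM, a ratio of 1.58 (1.51 to 1.65). It was higher in 5 of 5 macrophage-like clusters, with ratios from 1.10 in the Retnla and Lyz1 cluster, whose interval includes 1, to 1.58 in cycling macrophages. The Timp2 difference fell short of 1.5-fold under 4 of 17 alternatives (log2 0.46 at the least), among them equal weight for each cluster and thinned cells. Timp1 was lower, at 53.7 against 85.9 CPM, a ratio of 0.625 (0.570 to 0.684). Serpine2 was lower, at 9.23 against 21.0 CPM, a ratio of 0.439 (0.354 to 0.541). Both were lower in 5 of 5 macrophage-like clusters, Timp1 with ratios of 0.385 to 0.951 and Serpine2 with ratios of 0.195 to 0.488. The highest of these Timp1 ratios, in cycling macrophages, has an interval that includes 1. Reporter-high (415) and reporter-low (159) Tom positive macrophage-like cells had 311 and 278 CPM of Timp2, both above the Tom negative 192 CPM. Over the 10 other clustering settings the ratios were 1.52 to 1.67 for Timp2, 0.586 to 0.68 for Timp1 and 0.434 to 0.522 for Serpine2, with Timp1 short of the limit in 1. Plaur, at 520 and 557 CPM, had a ratio of 0.934 (0.905 to 0.963), and Plau was at 17.4 and 17.6 CPM.

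Fibroblast RNA in macrophage-like cells moved in the same direction as Timp1 and Serpine2. The 12 fibroblast markers, none at 0, summed in macrophage-like cells to 1270 CPM (Tom positive) against 1540 CPM (Tom negative). They stood there at a median of 1.76% (0.825% to 2.27%) and 2.52% (1.19% to 3.69%) of their fibroblast-like level. Timp1 stood at 3.37% and 4.55% and Serpine2 at 2.81% and 5.56% of theirs, above each of the 12 markers in both libraries. Plat (3.13% and 3.66%) and Timp3 (3.51% and 3.32%) were above the marker range in the Tom positive library and within it in the Tom negative one. The part of fibroblast RNA in the lower Timp1 and Serpine2 of Tom positive macrophage-like cells was not tested. Timp2, at 48.4% and 32.5% of its fibroblast-like level, Plau, at 68.3% and 56.7%, and Plaur, at 772% and 674%, were far above the markers.

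**Figure D5:**
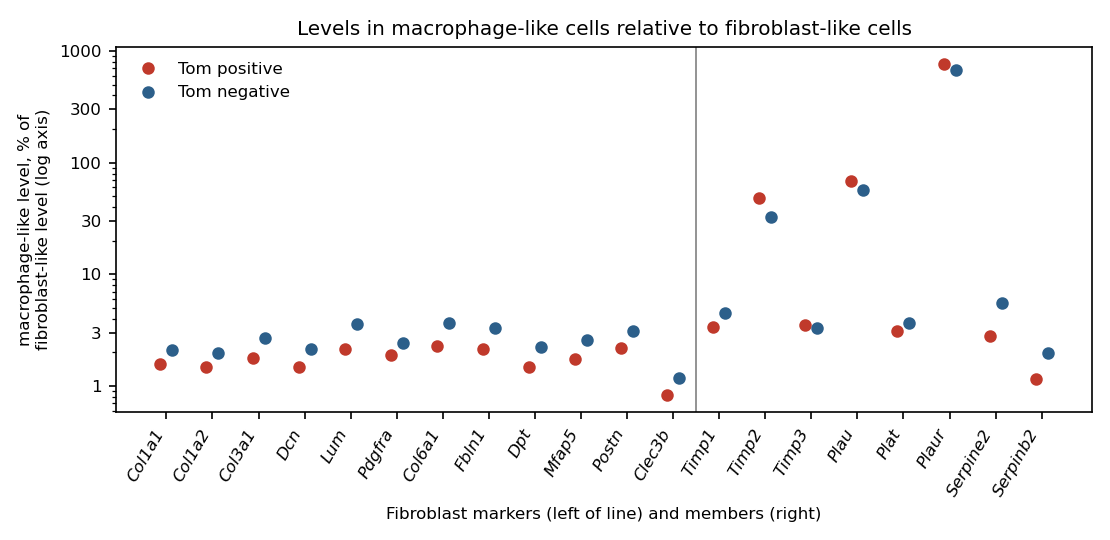
Level in macrophage-like cells as a percentage of the level in fibroblast-like cells of the same library (log axis) for 12 fibroblast markers (left of the line) and the 8 members (right), Tom positive in red and Tom negative in blue. Markers lie between 0.825% and 3.69%, Timp1, Timp3, Plat and Serpine2 between 2.81% and 5.56%, and Timp2, Plau and Plaur at 32.5% or more.

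In the Ccl17 and Plet1 cells Timp1 (72.5 against 126 CPM, ratio 0.578) and Serpine2 (8.48 against 21.5 CPM, ratio 0.394) were lower in the Tom positive library, where 3.05% of features differed. The summed fibroblast markers did not move that way in these cells, at 1660 CPM against 1540 CPM, while as a median share of their fibroblast-like level they stood at 2.02% against 2.75%. In endothelial-like cells, where 14.3% of features differed, Timp2 was higher (153 against 98.9 CPM, ratio 1.55) and Plat (46.2 against 76.5 CPM, ratio 0.604) and Serpine2 (23.7 against 44.7 CPM, ratio 0.531) were lower. The 12 fibroblast markers, none at 0, summed in endothelial-like cells to 1270 CPM (Tom positive) against 3280 CPM (Tom negative), a median of 1.58% (0.78% to 2.88%) against 5.34% (4.47% to 7.49%) of their fibroblast-like level. Plat stood at 14.9% against 21.1% and Serpine2 at 7.22% against 11.8% of theirs, and the part of fibroblast RNA in their differences was not tested. Macrophage markers also moved, from 245 CPM in Tom positive to 602 CPM in the other library. Timp3 had a ratio of 1.45 (1.36 to 1.54) there, short of the limit. In pericyte or smooth muscle-like cells Plau alone passed the limit, at 24.6 against 13.4 CPM, where 18.5% of features did. In neutrophil-like cells 44.2% of features passed it and the median feature was shifted by 0.39 on the log2 scale, so the lower Timp2 (128 against 194 CPM), Plat and Serpine2 there are relative to a shifted background.

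The rest of the pathway was followed through 56 further genes. In fibroblast-like cells 40 of the 56 were measured, 1 was higher and 3 were lower in the Tom positive library, where 2.30% of all measured features differed either way. Vitronectin (Vtn), a matrix protein that binds uPAR, was higher, at 45.1 against 25.4 CPM. Mmp9 (9.11 against 19.5 CPM), Mmp10 (10.6 against 16.9 CPM) and Mmp12 (13.8 against 28.7 CPM) were lower. Mmp9 and Mmp12 were at 1090 and 783 CPM and at 627 and 880 CPM in macrophage-like cells, so their fibroblast-like levels are small beside those of another class, and free RNA as their source was not tested. None of the measured genes of the other groups, namely other inhibitors (4 of 10 measured), clearance receptors (5 of 7), other metalloproteinase inhibitors (3 of 5) and growth factors (6 of 6), passed the limit.

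In macrophage-like cells 31 of the 56 were measured, 1 was higher and 4 were lower, where 3.37% of all measured features differed either way. Pdgfc, a growth factor that tPA activates by cutting, was higher at 89.6 against 52.9 CPM. Serping1 (19.6 against 34.5 CPM), Serpinf1 (20.5 against 32.7 CPM), Pcolce (11.6 against 22.4 CPM) and Mmp3 (12.2 against 18.9 CPM) were lower. Serping1 and Serpinf1, the C1 inhibitor and pigment epithelium-derived factor, were at 1370 and 1300 CPM and at 1140 and 1000 CPM in fibroblast-like cells. The 4 lower genes moved in the same direction as the fibroblast markers given above, and the part of fibroblast RNA in their differences was not tested.

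Plasminogen itself (Plg) gave 3 UMIs over all Tom positive and 10 over all Tom negative cells, so its activators and receptors were detected here without its transcript at any appreciable level. The plasminogen-binding proteins Anxa2 (556 and 672 CPM in fibroblast-like, 433 and 566 CPM in macrophage-like cells) and S100a10 (348 and 413 CPM, 519 and 642 CPM) were detected in both. Lrp1, the endocytic receptor that clears activator and serpin complexes, was at 690 and 656 CPM in fibroblast-like and 430 and 375 CPM in macrophage-like cells but at 16.1 and 56.5 CPM in endothelial-like cells. Mmp2 (1180 and 1020 CPM) and Mmp14 (733 and 673 CPM), which form the TIMP2-dependent activation complex, were present in fibroblast-like cells beside Timp2. Timp4, the remaining TIMP, was at 12.1 and 7.45 CPM in endothelial-like cells and at or below 0.129 CPM in fibroblast-like cells.

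Over 38 sums of cells (21 clusters, split by library, each with at least 50 cells), the members fell into patterns that are given as a description only, since sums of a cluster share its cells and libraries. Pearson correlations of log2 levels were 0.904 between Plat and Serpine2, 0.888 between Plat and Timp3 and 0.842 between Plat and Timp1. Plaur ran opposite to Plat (-0.79), Timp3 (-0.76), Serpine2 (-0.73) and Timp2 (-0.71). Plau was not close to any other member, with values from -0.43 to 0.348. Of 7072 genes compared, the one most like Timp1 was Tnc (0.95), followed by Tmem45a and Col5a3. Timp2 was most like Kdelc2 (0.855), Igfbp4 and Fos, and Timp3 most like Amotl1 (0.966), Fermt2 and Tm4sf1. Plat was most like Rbms3 (0.975), Bmp1 and Arhgap42, and Serpine2 most like Thy1 (0.962), Lhfp and Adamts12. Plaur was most like Lilr4b (0.956), Gk and Sirpb1b. Serpinb2 was most like Fosl1 (0.828), Igf2bp2 and Mettl9, and Plau had no gene above Nmt2 (0.611), followed by Snx9 and Tmem140.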

How the data were processed

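Single-cell RNA was measured in 2 libraries, 1 of tdTomato positive and 1 of tdTomato negative stromal cells. Per the labels, tumours of perfused mice were digested and antibody-stained cells were sorted before 10x 3' libraries were made with kit version 3.1. The deposited matrices hold whole-number UMI counts for each gene and barcode. The submitters' processing notes name Cell Ranger 7.0.1 and mm10, and the cell-calling step is not given in the sources used here.

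A barcode passed with 500 or more genes, 1000 or more UMIs and no more than 10% of UMIs from mitochondrial genes (4365 and 6677 did). Scrublet, run per library in scanpy 1.11.5, removed 63 and 97 doublets. Barcodes shared with the other library were left out where the other copy held over 5 times as many UMIs or both were under 5000 UMIs. After that, 5 kept barcodes occurred in both libraries. Kept cells held 91.2% and 90.7% of all UMIs. The 2000 most variable genes, without the members and pathway genes, gave 30 components, a graph of 15 neighbours and 25 Leiden clusters at resolution 1. A cluster was named from marker lists when at least 3 markers reached 50 CPM with a mean log2 level of at least 1 over the median cluster and its 10 leading genes did not favour another class. Seed 0 of the Leiden step is reported, as first run, and the partition was not stable to the seed or to the OpenBLAS kernel. This named 11 classes and left 4 clusters (1141 cells) unnamed, and names may differ from the submitters' own.

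Counts were summed per class and library and divided by the total to CPM. Log2 differences use a pseudocount of 1 CPM. Intervals at 95% are exact Poisson (CPM), exact binomial (shares) and exact conditional (ratios). Separately from these intervals, 3 counts were set as the floor of a level. With 1 library per group no test between groups was run. The ratio and its interval were checked on simulated Poisson sums, which hold no spread between cells or animals. That check cannot show how the intervals hold for UMIs concentrated in few cells. Alternatives covered filters, doublets, shared barcodes, clustering, depth, scaling (TMM from edgeR 4.0.16 and median of ratios from DESeq2 1.42.0), minimum level and pseudocount. Genes named are the 8 members, pathway genes past 1.5-fold at 10 CPM or more in fibroblast- or macrophage-like cells (up to 4 a group), the 3 genes most like each member, and the leading genes of subsets. A few more pathway genes, and Fosl1, Lyz2, Syn1 and Syn3, were chosen after their values were seen. Members and lists were chosen with earlier results of these data known. Some pathway genes are not reported by name here but count in the totals. Gene positions are from GENCODE M21, and promoters from RefSeq (GRCm38.p6), in which 6 of 8 members matched.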

Additional observations from a re-analysis of the deposited data

Results flagged for a closer look

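Among the named classes and the clusters with 100 or more cells in each library, differences past 1.5-fold ran in opposite directions in different cells for Timp2 and Serpinb2, and in each case the difference between the cells was not tested, since there is 1 library per group. The Timp2 ratio of Tom positive over Tom negative CPM was 1.55 in endothelial-like and 1.58 in macrophage-like cells but 0.66 in neutrophil-like cells, where the median of all features was itself shifted. The Serpinb2 ratio was 0.661 in fibroblast-like cells as a whole. It was 2.06 in the fascia-like subset, where 11 Tom positive and 21 Tom negative cells held 10 or more Serpinb2 UMIs, and 0.361 in the Ctla2a and Cemip subset, where 6 and 9 did. Among myeloid cells it was 5.13 in the Nos2 and Rsad2 cluster, where 5 and 2 cells did, and 0.0847 in the neutrophil-like cells led by G0s2, from 1 and 8 UMIs. Smaller clusters add opposite directions for Plau, Serpine2 and Timp3, also not tested. The share of all features past 1.5-fold was 18.5% in pericyte or smooth muscle-like and 51.8% in the G0s2 neutrophil-like cells. That share is not given here for cycling macrophages, the Retnla and Lyz1 cluster or the Ctsk and Mt3 cluster. The last of these was shallow, with medians of 1894.5 and 3500.5 UMIs. The Plau ratio was 1.84 (1.13 to 2.92) in pericyte or smooth muscle-like cells and 1.51 (1.03 to 2.22) in cycling macrophages, but 0.254 (0.0872 to 0.61) in the Ctsk and Mt3 cluster, from 6 and 35 UMIs. Serpine2 was lower in most populations but had a ratio of 1.57 (0.747 to 3.33) in the Ctsk and Mt3 cluster, from 17 and 16 UMIs. Timp3 had 1.66 (0.733 to 4.09) in the G0s2 neutrophil-like cells, 0.359 (0.068 to 1.22) in the Retnla and Lyz1 cluster and 0.329 (0.0346 to 1.59) in the Ctsk and Mt3 cluster, and all 3 intervals include 1.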

How the results depend on the processing

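Each choice was changed one at a time under 17 alternatives (11 for the class order). Of these, dropping the minimum level and lowering the pseudocount cannot undo a 1.5-fold call, which uses the ratio without a pseudocount. The count of members past 1.5-fold in fibroblast-like cells was 1 (Serpinb2) and became 0 under the mitochondrial limits of 5% and 20%, the stricter and the looser minimum of genes and UMIs, doublets kept, shared barcodes kept, members allowed among the variable genes, resolution 1.5, the mean over cells, thinning, TMM, the median of ratios and equal weight of subsets. It also became 0 with 7 of 9 other Leiden seeds (1, 2, 5, 6, 7, 8 and 9) and with another linear algebra kernel, settings added after seeing the data, where 484 or more fibroblast-like cells were left unnamed. Over those 10 settings the macrophage count was 2 or 3 and the highest class was shared for 7 members. In reporter-high cells Serpinb2 was higher instead, by 1.04 on the log2 scale. In macrophage-like cells the count of 3 ranged from 2 to 4. Timp1 (-0.79 to -0.61) and Serpine2 (-1.31 to -0.74) stayed past the limit under 17 of 17 alternatives and Timp2 (0.46 to 0.70) under 13, the exceptions being the 5% limit, the looser minimum, thinning and equal weight of subsets. The 7 members with the same highest class became 4 with the looser minimum and 4 with shared barcodes kept. The cause was not tested. In the looser setting Scrublet called 0 doublets in the Tom negative library. With shared barcodes kept, the fibroblast-like class held 2006 Tom negative cells and their Timp1 level was 1410 CPM. Serpinb2 levels near 1 CPM, as in macrophage-like cells, rest on few UMIs, and a difference there was not detectable at this depth. No paired analysis was possible because each group has 1 library.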
